A study of Rattus norvegicus with 3 samples.

Results

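Vip and Adarb2 nuclei are brain nuclei that carried RNA of a GABA-synthesising enzyme together with RNA of Vip or Adarb2, a pair of genes used as marks of interneurons that arise in the caudal ganglionic eminence. They were chosen from their own counts. A barcode was taken when it had at least 500 detected genes, at least 1 unique molecular identifier (UMI) of Gad1 or Gad2, at least 1 UMI of Vip or at least 3 UMIs of Adarb2, and 0 UMIs each of Sst, Lhx6, Slc17a7, Slc17a6 and Rarb. This gave 1736 nuclei among 51647 barcodes, of which 44950 had at least 500 genes. The LPS library held 509 of them, the poly(I:C) library 466 and the saline library 761. The deposited values are UMI counts per gene and barcode, and levels are given as CPM, the UMIs of a gene summed over these nuclei in a library and scaled by all their UMIs.

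All animals were females of the outbred rat stock Crl:CD(SD), wild type and 12 weeks old, whose brains were taken 7 h after 1 intraperitoneal injection. The injection was lipopolysaccharide (LPS, an outer membrane molecule of Gram-negative bacteria) at 5 mg/kg, poly(I:C) (a synthetic RNA duplex) at 12 mg/kg, or saline as the sham control. Nuclei of 4 rats were pooled for each treatment, which left 1 library per group and no record of which rat a nucleus came from. No difference below therefore has a replicate check, no p-value was computed, and every interval in brackets is a 95% interval that covers counting error only, not animals or preparation.

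In the rodent cortex, interneurons of the caudal ganglionic eminence include Vip cells, which mostly contact other interneurons, and neurogliaform and related cells with Reln, Lamp5 or Ndnf, which release GABA diffusely in the upper layers. Adarb2 encodes a protein of the RNA-editing deaminase family and marks much of this lineage, whereas Lhx6 and Sst mark interneurons of the medial ganglionic eminence. Type I interferons signal through their receptor to a complex with Stat2 and Irf9, which binds interferon-stimulated response elements in the promoters of antiviral genes such as Mx1, Ifi44 and Ifih1. Poly(I:C) is sensed by Tlr3 and Ifih1, and LPS by Tlr4.

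Depth differed between the libraries and touches every share of nuclei given here. The median Vip and Adarb2 nucleus had 2301 UMIs and 1276 genes after LPS, 1245.5 UMIs and 808 genes after poly(I:C), and 1432 UMIs and 934 genes after saline. Their UMIs summed to 1312981, 698077 and 1333996 in that order. No nucleus had over 5% mitochondrial UMIs. The LPS and saline libraries shared 1 barcode among these nuclei, the poly(I:C) and saline libraries shared 1, and the LPS and poly(I:C) libraries shared 0.

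These nuclei made up 4.85% [4.45 to 5.28] of barcodes with at least 500 genes after LPS, 3.55% [3.24 to 3.88] after poly(I:C) and 3.57% [3.32 to 3.82] after saline. The share after LPS was 1.36-fold that after saline [1.22 to 1.52], and the share after poly(I:C) was 0.996-fold [0.890 to 1.12]. The LPS ratio was smaller among deeper barcodes. Among barcodes with at least 1000 genes, the shares were 4.98%, 3.32% and 4.50%, and the ratio of LPS to saline was 1.11 [0.961 to 1.27]. Set against all nuclei with Gad1 or Gad2, the Vip and Adarb2 nuclei were 21.2% [19.5 to 22.9], 19.2% [17.7 to 20.9] and 20.4% in the same order, and these intervals overlap. The 5 excluded genes removed 271 (34.7%) of the LPS, 129 (21.7%) of the poly(I:C) and 258 (25.3%) of the saline nuclei that met the other criteria, and Rarb, a retinoic acid receptor of striatal neurons, accounted for 195, 86 and 153 of these.

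The label names Vip first, but Vip was found in few of the nuclei. Vip, a neuropeptide, had UMIs in 49 LPS (9.63%), 29 poly(I:C) (6.22%) and 42 saline (5.52%) nuclei. After each nucleus was thinned to 1000 UMIs, which left out 16, 143 and 178 shallower nuclei, these shares were 6.09%, 3.72% and 2.57%. In Slc17a7 nuclei, excitatory neurons that should lack Vip, the thinned shares were 0.199%, 0.0858% and 0.223%, with median depths of 3449.5, 1752 and 1678.5 UMIs before thinning. Since the rule admits nuclei by Vip, its higher share here follows from the choice of nuclei. The other 460, 437 and 719 nuclei entered through Adarb2 alone. Of the nuclei with Vip, 0, 5 and 8 had fewer than 3 Adarb2 UMIs.

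Adarb2 stood at 8256 CPM after LPS, 8554 CPM after poly(I:C) and 7872 CPM after saline, with medians of 15, 10 and 10 UMIs per nucleus. Reln, a secreted glycoprotein of neurogliaform and related interneurons, was at 967, 913 and 906 CPM, against 54.4, 67.8 and 71.2 CPM in Slc17a7 nuclei. Egfr, the receptor of epidermal growth factor, was at 324, 327 and 264 CPM, and at no more than 14.3 CPM in Slc17a7 nuclei. Gad2, a GABA-synthesising enzyme, was at 440, 656 and 570 CPM and its paralogue Gad1 at 469, 562 and 472 CPM. The rule used Adarb2, Vip and Gad2, so their presence in all 3 libraries follows from the choice of nuclei, while it did not use Reln and Egfr. Vip was the lowest of these 5 markers, at 61.7 CPM after LPS, 64.5 CPM after poly(I:C) and 37.5 CPM after saline. Reln was found in 35.4%, 29.2% and 33.9% of the nuclei, or 29.0%, 24.1% and 28.8% after thinning, so about as many nuclei lacked detected Reln in each library.

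Other genes of the lineage ranged widely in level. Erbb4, the neuregulin receptor, was at 6787, 6125 and 5014 CPM. Lamp5, a neurogliaform marker, was at 46.5, 40.1 and 39.7 CPM, against 23.8, 24.9 and 26.6 CPM in Slc17a7 nuclei. Ndnf was at 37.3, 28.7 and 35.2 CPM, Kit at 70.8, 70.2 and 82.5 CPM, and Prox1, a transcription factor of these interneurons, at 64.0, 34.4 and 43.5 CPM. Sncg, which marks basket cells with Cck, had 4 UMIs after LPS and 0 after poly(I:C) and saline, too few to compare. Nxph1, a neurexin ligand more typical of the medial lineage, was at 1472, 1473 and 1429 CPM although Lhx6 and Sst were excluded by the rule.

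**Figure D1:**
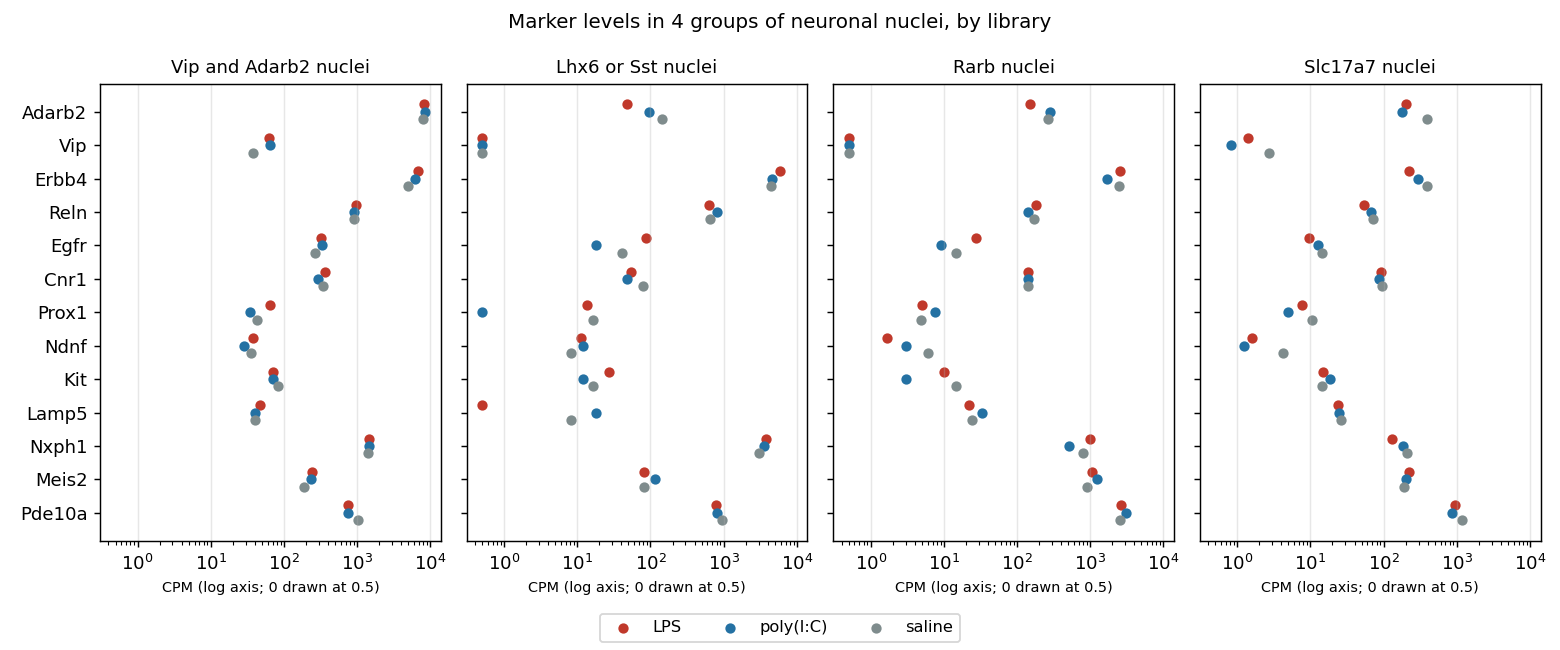
Level of 13 marker genes in CPM on a log axis (0 drawn at 0.5), 1 panel for each of Vip and Adarb2, Lhx6 or Sst, Rarb and Slc17a7 nuclei, with 1 point for each of the LPS, poly(I:C) and saline libraries. In Vip and Adarb2 nuclei Adarb2 leads at 8256, 8554 and 7872 CPM and Vip lies between 37.5 and 64.5 CPM.

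The nuclei were also set against 569 LPS, 555 poly(I:C) and 623 saline nuclei with Gad1 or Gad2 that held Lhx6, Sst or Rarb. These other nuclei had no Vip, Slc17a7 or Slc17a6 UMI and fewer than 3 Adarb2 UMIs. They do not cover all remaining nuclei with Gad1 or Gad2. In this description, which follows from how the nuclei were chosen, several genes led in all 3 libraries. Fgf13, an intracellular regulator of sodium channels, was at 1398, 1467 and 1107 CPM after LPS, poly(I:C) and saline, against 220, 248 and 238 CPM in the other nuclei. Cyct, a cytochrome c gene, was at 312, 304 and 233 CPM, against 35.8, 35.0 and 19.6 CPM. Rxfp1, a relaxin receptor, was at 146, 123 and 93.7 CPM, against 13.6, 8.45 and 14.9 CPM. Piezo2, a mechanosensitive channel, Frem1, an extracellular matrix protein, and Kit, a receptor tyrosine kinase, stood out in the same way at lower levels. So did Prox1, at 64.0, 34.4 and 43.5 CPM against 7.40, 6.04 and 7.47 CPM. Ndnf was at 37.3, 28.7 and 35.2 CPM against 4.32, 4.83 and 6.53 CPM. At the other end, the striatal genes Rgs9 (32.0, 38.7 and 27.7 CPM against 472, 622 and 484 CPM) and Drd2 (12.2, 21.5 and 12.7 CPM against 226, 244 and 167 CPM) were low. Nuclei chosen by Rarb, a gene of striatal neurons, made up 419, 447 and 487 of the other nuclei, so this difference follows from the choice.

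The nuclei were not uniform in Adarb2. Among nuclei without Vip, those at the threshold of 3 Adarb2 UMIs numbered 50 after LPS, 56 after poly(I:C) and 81 after saline, and 61, 68 and 127 nuclei with 2 UMIs lay just outside it. Reln was at 424, 537 and 319 CPM in nuclei with 3 Adarb2 UMIs, and at 277, 586 and 327 CPM in those with 2. In nuclei with 24 or more Adarb2 UMIs, Reln was at 1554, 1408 and 1366 CPM. Cnr1, a cannabinoid receptor, had 72.2, 42.4 and 87.8 CPM in nuclei with 3 Adarb2 UMIs and 793, 1273 and 1125 CPM in nuclei with 24 or more. Meis2, a transcription factor of olfactory bulb and other ventral forebrain neurons, ran the other way, with 271, 551 and 231 CPM at 3 UMIs and 153, 22.5 and 67.0 CPM at 24 or more. The summed level of excitatory markers was 578, 720 and 965 CPM at 3 UMIs and 465, 518 and 639 CPM at 24 or more. That of oligodendrocyte markers was 939, 579 and 822 CPM at 3 UMIs and 255, 225 and 250 CPM at 24 or more. Median depth also differed, with 2039.5, 1073.5 and 1346 UMIs at 3 Adarb2 UMIs and 2628, 1751.5 and 1917 UMIs at 24 or more. Nuclei with 3 Adarb2 UMIs thus held less Reln and Cnr1 than those with 24 or more in every library. Between these ends the marker sums had no even course, and oligodendrocyte markers after poly(I:C) were at 317, 111 and 659 CPM in nuclei with 4 to 5, 6 to 11 and 12 to 23 Adarb2 UMIs.

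**Figure D2:**
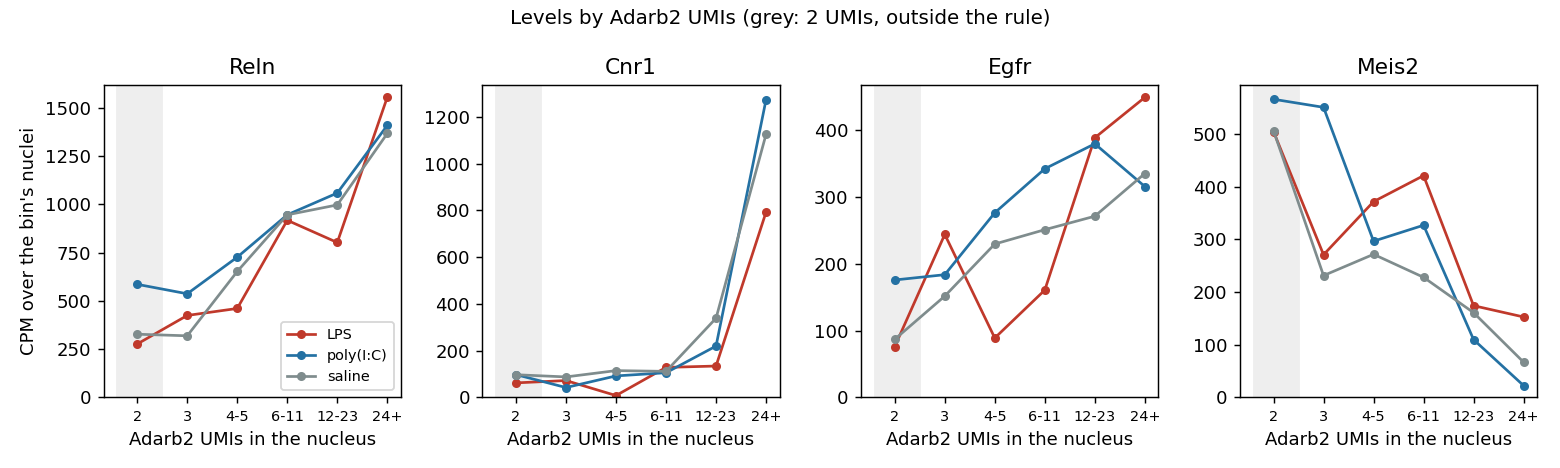
Level of Reln, Cnr1, Egfr and Meis2 in CPM by the number of Adarb2 UMIs per nucleus, for nuclei without Vip, with 1 line for each library, and the grey band marks nuclei with 2 UMIs just outside the rule. Reln and Cnr1 are highest in nuclei with 24 or more Adarb2 UMIs, at 1366 to 1554 and 793 to 1273 CPM, and Meis2 is lowest there.

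Nuclei with Vip differed from those without it in genes that the rule did not use. These values describe 49, 29 and 42 nuclei and were not tested. Synpr, a synaptic vesicle protein, was at 1020 CPM in Vip nuclei and 262 CPM in the rest after LPS, 769 and 209 CPM after poly(I:C), and 582 and 215 CPM after saline, which is 3.89-fold [3.09 to 4.86], 3.68-fold [2.42 to 5.45] and 2.71-fold [1.90 to 3.77] higher. Tiam1, a Rac exchange factor, was 2.93-fold, 3.77-fold and 2.40-fold higher, with intervals above 1 in each library. Sobp was 2.08-fold, 2.60-fold and 2.21-fold higher. These genes were picked as at least 2-fold higher in Vip nuclei in all 3 libraries, so their agreement across libraries follows from the choice.

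Reln was lower in nuclei with Vip, and so were genes picked as at least 2-fold lower in all 3 libraries. Reln was at 356 and 1020 CPM in nuclei with and without Vip after LPS, 72.1 and 966 CPM after poly(I:C), and 398 and 934 CPM after saline. Nxph1 was 0.196-fold [0.134 to 0.277], 0.393-fold [0.253 to 0.584] and 0.365-fold [0.258 to 0.503], the receptor tyrosine kinase Alk 0.343-fold, 0.266-fold and 0.265-fold, and the transmembrane collagen Col25a1 0.323-fold, 0.197-fold and 0.361-fold. Egfr was 1.48-fold [1.07 to 2.0], 1.19-fold [0.668 to 1.98] and 1.37-fold [0.875 to 2.06], so that only the interval after LPS left out 1. The median depth of nuclei with and without Vip was 1750 and 2332.5 UMIs after LPS, 1270 and 1244 UMIs after poly(I:C), and 1080.5 and 1443 UMIs after saline. The part of depth in these differences was not tested.

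**Figure D3:**
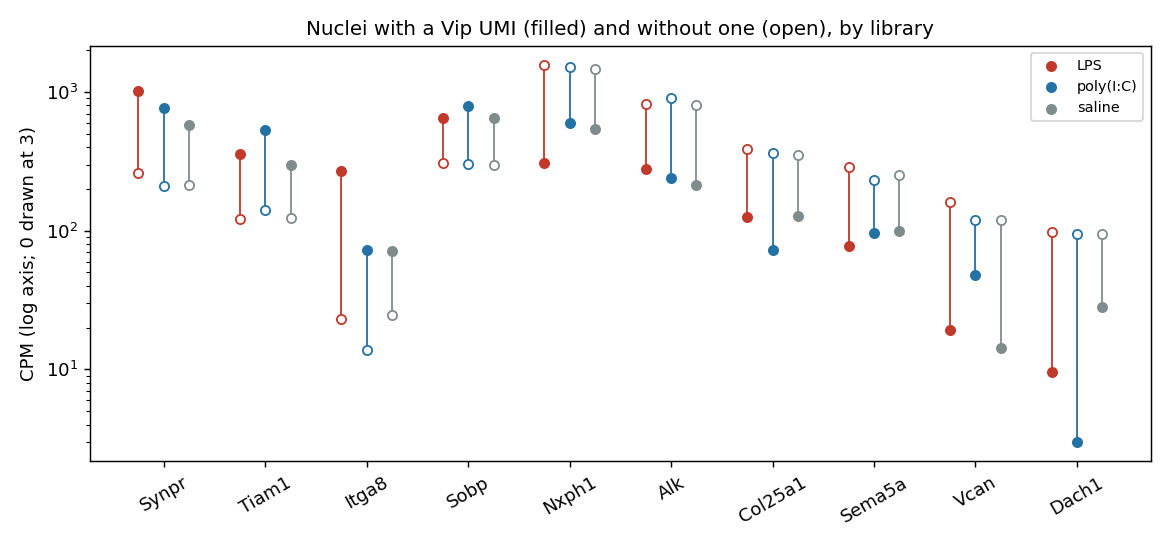
Level of 10 genes in CPM on a log axis (0 drawn at 3) in nuclei with a Vip UMI (filled points) and without one (open points), by library. Synpr lies at 582 to 1020 CPM in nuclei with Vip and 209 to 262 CPM in the rest, and Nxph1 at 308 to 601 CPM and 1478 to 1572 CPM.

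After poly(I:C), genes induced by interferon were higher in Vip and Adarb2 nuclei than after saline. The comparison addressed how brain cells respond to a viral mimic given outside the brain. The list held 60 interferon-stimulated genes, of which 54 were found in the feature tables, and their UMIs summed to 781 (1119 CPM) after poly(I:C) and 404 (303 CPM) after saline. The ratio was 3.69 [3.27 to 4.18], or 5.63 [4.84 to 6.55] without Adar, the RNA-editing enzyme with the most UMIs of any member over both libraries, itself at 132 and 127 CPM. Among 15 members with at least 20 UMIs over both libraries, 11 reached a ratio of 2 or more and 0 were lower to that degree, against 1.60% of all 8875 such genes higher and 3.41% lower. A member at 0 after saline can reach 20 UMIs only through poly(I:C), so this count covers those members and not the list. Their median log2 ratio was 3.33, beside -0.03 over all genes.

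The genes furthest apart were antiviral effectors. Ifi44, an interferon-induced cytoplasmic protein, had 38 UMIs after poly(I:C) and 1 after saline, a ratio of 72.6 [12.3 to 2943]. Mx1, a GTPase that blocks viral replication, had 38 and 0 UMIs and was at least 24.2-fold higher, with 3 counts set as the floor of the saline library. Its paralogue Mx2 had 28 and 1 UMIs, a ratio of 53.5 [8.85 to 2188], and reads of Mx1 and Mx2 may be divided uncertainly between them. Usp18, the protease that removes Isg15 and dampens interferon signalling, had 36 and 0 UMIs (at least 22.9-fold higher). Oas1k, a gene of the multi-copy oligoadenylate synthetase family, had 20 and 0 UMIs (at least 12.7-fold higher). Mx1 was found in 31 nuclei, Usp18 in 30, and Ifi44 and Mx2 in 26 each, so these counts did not rest on a few nuclei.

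RNA sensors and signalling genes of the pathway were higher too. Ifih1, the sensor of long RNA duplexes, had 18 UMIs after poly(I:C) and 2 after saline, a ratio of 17.2 [4.12 to 153]. Ddx58, which encodes the sensor RIG-I, had 32 and 4 UMIs, a ratio of 15.3 [5.42 to 59.5]. Eif2ak2, the RNA-activated kinase that halts translation, was at 84.5 and 12.7 CPM, a ratio of 6.63 [3.81 to 12.1]. Herc6, the ligase that attaches Isg15 in rodents, was at 98.8 and 15.0 CPM (6.59 [3.96 to 11.5]), and Rnf213, a large antimicrobial ubiquitin ligase, at 67.3 and 6.0 CPM (11.2 [5.26 to 27.5]). Parp9, an ADP-ribosyltransferase family member, had 21 and 4 UMIs, and Stat2, a transcription factor of interferon signalling, was 2.12-fold higher. Rsad2, which makes an antiviral nucleotide, had 18 and 1 UMIs, below the minimum for the count. Stat4, a transcription factor of cytokine signalling, was at 93.1 and 6.75 CPM, a ratio of 13.8 [6.84 to 31.5], in 51 and 9 nuclei.

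Promoter sequences of 4 of these genes are shown because they hold letters that match the core of an interferon response element. Some other genes that were higher after poly(I:C) held no match in the same window. Whether these matches act as response elements was not tested. Each holds 250 bases before and 50 bases after the annotated start, read in the direction of the gene, from RefSeq on rat build GRCr8, which is not the build of the counts (mRatBN7.2). Capitals mark places where GAAA occurs 2 times with 2 bases of any kind between the copies, or TTTC likewise for the other strand, the core of the interferon-stimulated response element.
Ifi44, chr2:243303791-243304090, minus strand: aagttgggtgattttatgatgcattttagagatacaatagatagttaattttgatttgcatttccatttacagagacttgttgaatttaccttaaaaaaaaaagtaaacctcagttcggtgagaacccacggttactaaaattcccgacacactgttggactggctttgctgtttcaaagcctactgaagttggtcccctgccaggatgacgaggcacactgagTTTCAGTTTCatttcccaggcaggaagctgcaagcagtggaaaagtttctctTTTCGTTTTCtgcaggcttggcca
Ifih1, chr3:67683919-67684218, minus strand: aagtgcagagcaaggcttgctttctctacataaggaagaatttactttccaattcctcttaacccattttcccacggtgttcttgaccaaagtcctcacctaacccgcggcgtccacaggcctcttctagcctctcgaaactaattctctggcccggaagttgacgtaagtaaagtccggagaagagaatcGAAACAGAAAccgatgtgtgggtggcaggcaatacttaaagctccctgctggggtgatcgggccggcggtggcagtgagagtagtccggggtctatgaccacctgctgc
Eif2ak2, chr6:21940904-21941203, plus strand: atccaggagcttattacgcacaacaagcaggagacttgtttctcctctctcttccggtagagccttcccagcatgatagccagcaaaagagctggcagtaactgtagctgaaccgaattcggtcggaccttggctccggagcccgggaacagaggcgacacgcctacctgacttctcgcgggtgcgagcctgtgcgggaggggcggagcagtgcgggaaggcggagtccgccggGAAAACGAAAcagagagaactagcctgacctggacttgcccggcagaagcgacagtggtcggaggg
Rsad2, chr6:48788071-48788370, minus strand: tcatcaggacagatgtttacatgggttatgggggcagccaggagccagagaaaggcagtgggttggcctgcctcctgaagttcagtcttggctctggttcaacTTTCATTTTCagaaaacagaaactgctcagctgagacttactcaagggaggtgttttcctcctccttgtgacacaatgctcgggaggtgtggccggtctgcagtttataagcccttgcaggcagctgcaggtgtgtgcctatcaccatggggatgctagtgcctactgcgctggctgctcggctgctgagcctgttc
The match of Eif2ak2 began 16 bases before the start, that of Ifih1 59 bases and that of Rsad2 147 bases, while Ifi44 had matches at 26 bases before and 26 bases after it. The motif was found in 25 (53.2%) of 47 promoters of the interferon list, which cover 44 of its 60 symbols, and in 1312 (3.92%) of 33469 promoters of all genes. Of the 10 genes with the highest ratios, 6 matched a promoter by symbol and 3 of these held the motif (Ifi44, Ifih1 and Cxcl10). Mx1, Cxcl11, Stat4, Herc6 and Rnf213 had 0 matches in this window, which says only that these letters are not in it.

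**Figure D4:**
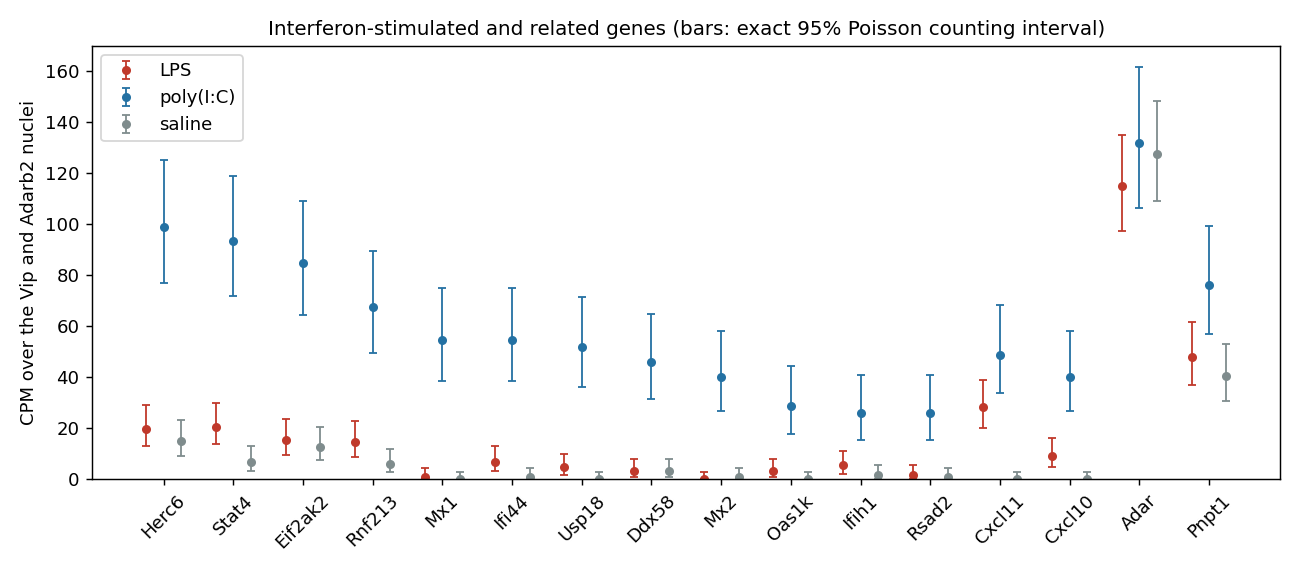
Level of interferon-stimulated and related genes in Vip and Adarb2 nuclei of the LPS, poly(I:C) and saline libraries, in CPM with exact Poisson 95% intervals. Ifi44 and Mx1 stand at 54.4 CPM after poly(I:C), at 6.85 and 0.762 CPM after LPS and at 0.750 and 0 CPM after saline.

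Interferon-stimulated UMIs were found in many nuclei after poly(I:C). At least 1 UMI of the interferon list was found in 54.9% [50.3 to 59.5] of nuclei after poly(I:C) and 36.3% [32.8 to 39.8] after saline. Thinned to 1000 UMIs, these shares were 48.6% [43.0 to 54.2] and 26.9% [23.4 to 30.7]. At least 3 different members were found in 38 of 323 thinned nuclei after poly(I:C), or 11.8% [8.46 to 15.8], and in 5 of 583 after saline, or 0.858% [0.279 to 1.99]. Even in the library with the highest sums, most nuclei held fewer than 3 members at this depth, and the largest sum in 1 nucleus was 42 UMIs.

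Antigen presentation and chemokine genes were also higher after poly(I:C). The summed level of class I presentation genes was 195 CPM after poly(I:C) and 98.2 CPM after saline, a ratio of 1.98 [1.55 to 2.54]. B2m, the light chain of class I molecules, was at 35.8 and 17.2 CPM (2.08 [1.13 to 3.83]), Psme2, a proteasome activator, was 2.10-fold higher, the 4 members with enough UMIs had a median log2 ratio of 0.92, and the RT1 genes of this list are a multi-copy family whose reads may be shared. Cxcl11 and Cxcl10, ligands of a T cell chemokine receptor, had 34 and 28 UMIs after poly(I:C) and 0 and 0 after saline, at least 21.7-fold and 17.8-fold higher. They were found in 15 and 14 nuclei, and Cxcl11 reached 8 UMIs in 1 nucleus. Other neurons had them too. After poly(I:C), Cxcl11 and Cxcl10 had 170 and 124 UMIs in Slc17a7 nuclei, 58 and 29 in Rarb nuclei, and 10 and 4 in Lhx6 or Sst nuclei. Both were at 0 in each of these groups after saline, so the difference was not particular to Vip and Adarb2 nuclei. The whole list of chemokine and endothelial response genes had 68 UMIs after poly(I:C) and 5 after saline, a ratio of 26 [10.6 to 82.6]. In an alternative chosen after seeing the data, nuclei with 3 or more UMIs over 62 glial and vascular markers and nuclei that Scrublet called doublets were left out, and the ratio was 21.1 [6.65 to 107]. Endothelial markers had 16 UMIs (22.9 CPM) after poly(I:C) and 65 UMIs (48.7 CPM) after saline. Without Slco1a4 (2 and 25 UMIs), the leading member, their sum was 0.669-fold [0.336 to 1.26], an interval that includes 1. Slco1a4 was also lower in Slc17a7 nuclei, at 0 and 80 UMIs. The part of endothelial RNA in the chemokine counts was not tested.

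Genes of neuronal function differed less after poly(I:C). NF-kB target genes (0.955-fold [0.749 to 1.21]) and sensors of microbial molecules and cytokines (1.06-fold [0.930 to 1.20]) had intervals that include 1. The summed GABA synthesis and release genes were at 1.04-fold [1.0 to 1.08], GABA-A receptor subunits at 1.05-fold [1.01 to 1.09], glutamate receptor subunits at 1.02-fold [0.996 to 1.04] and clock genes at 1.07-fold [1.02 to 1.14] of the saline level. None of the 13, 12, 17 and 12 members with enough UMIs in these lists was at least 2-fold apart. Potassium channel genes were at 0.874-fold [0.855 to 0.892], led by Kcnip4, a subunit of A-type channels, at 7377 and 9059 CPM, and Kcnma1, the large-conductance calcium-activated channel, at 875 and 1191 CPM (0.735 [0.668 to 0.807]). Erbb4 was at 6125 and 5014 CPM (1.22 [1.18 to 1.27]). These intervals are narrow because the genes are abundant, and they hold no spread between animals. Among immediate early genes, which follow neuronal activity, the sum was at 0.933-fold [0.80 to 1.09], and Nr4a3, an orphan nuclear receptor, was the only member of 8 at least 2-fold apart, with 21 and 16 UMIs (2.51 [1.25 to 5.14]), against 1.60% of all genes higher and 3.41% lower. Of the 10 genes lowest after poly(I:C), Hbb-b1 (1 and 37 UMIs), a haemoglobin chain, Cxcl12 (2 and 35 UMIs), Slco1a4 (2 and 25 UMIs) and Slc2a1 (2 and 20 UMIs) are known from blood or vessel cells, and 21 of the Hbb-b1 UMIs after saline lay in 1 nucleus.

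After LPS, interferon-stimulated genes were only slightly higher than after saline, and the comparison addressed the response to a bacterial stimulus given outside the brain. The list summed to 499 UMIs (380 CPM) after LPS and 404 UMIs (303 CPM) after saline, a ratio of 1.25 [1.10 to 1.43], or 1.51 [1.28 to 1.79] without Adar. Of 9 members with at least 20 UMIs, 2 were at least 2-fold higher and 0 lower, against 1.73% higher and 2.01% lower of all 9659 genes. These were Rnf213, with 19 and 8 UMIs (2.41 [1.01 to 6.37]), and Ifitm3, which restricts viral entry, with 17 and 4 UMIs (4.32 [1.41 to 17.6]), 10 of the 17 in nuclei called doublets. The median log2 ratio of the 9 members was 0.25, beside -0.01 over all genes. Without nuclei that held 3 or more glial or vascular UMIs or were called doublets, the summed ratio was 1.13 [0.954 to 1.34]. The thinned share of nuclei with a UMI of the list was 26.8% [22.9 to 30.9] after LPS and 26.9% [23.4 to 30.7] after saline, so that no difference was detectable in that share. Ifi44 had 9 and 1 UMIs (9.14 [1.27 to 401]), Usp18 6 and 0 UMIs, and Stat4 27 and 9 UMIs (3.05 [1.39 to 7.37]).

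The summed level of acute phase genes was higher after LPS, mainly through members with few UMIs. The summed level of genes downstream of STAT3 and of the acute phase was 104 CPM after LPS and 45 CPM after saline, a ratio of 2.32 [1.70 to 3.20], or 1.92 [1.38 to 2.70] without called doublets. Stat3, the transcription factor of interleukin-6 signalling, was at 53.3 and 38.2 CPM (1.39 [0.958 to 2.04]) and was the only 1 of 14 members with at least 20 UMIs, so that 0 members were called at least 2-fold higher. Of its other members, Cp, the copper-carrying ceruloplasmin, had 18 and 0 UMIs (at least 6.10-fold higher), Cebpb 9 and 0 UMIs and Cebpd 7 and 0 UMIs. Without Stat3 the sum was 7.56-fold higher [3.76 to 17.3]. Cp, Cebpb and Cebpd are also expressed by glia and vessel cells. NF-kB target genes summed to 0.915-fold [0.749 to 1.12], and Nfkbia, the inhibitor that NF-kB induces, was lower, with 5 and 18 UMIs (0.282 [0.0819 to 0.789]). Receptors and sensors of microbial molecules and cytokines summed to 1.15-fold [1.03 to 1.27], with 0 of 13 members at least 2-fold apart.

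Genes induced by glucocorticoids were slightly higher after LPS, and immediate early and cholesterol genes lower. The glucocorticoid list stood at 857 CPM after LPS and 700 CPM after saline (1.22 [1.12 to 1.34]), led by Zbtb16, a zinc finger transcription factor, at 450 and 367 CPM (1.23 [1.09 to 1.39]), and 1 of its 8 members with enough UMIs was at least 2-fold higher, against 1.73% of all genes. This was Mertk, a receptor for apoptotic cells, with 55 and 16 UMIs (3.49 [1.97 to 6.53]). The median log2 ratio was 0.18 over the members of this list with enough UMIs, -0.56 over 7 immediate early genes and -0.36 over 14 cholesterol genes. The immediate early list was at 281 and 388 CPM (0.724 [0.632 to 0.829]), with Homer1, a postsynaptic scaffold, at 181 and 229 CPM (0.793 [0.666 to 0.942]). Thinning to 1000 UMIs before the rule was applied gave 0.890 [0.664 to 1.19], an interval that includes 1. Cholesterol synthesis genes were at 365 and 474 CPM (0.770 [0.682 to 0.869]), with the squalene synthase Fdft1 at 41.9 and 60.7 CPM (0.690 [0.481 to 0.984]) and the sterol sensor Insig1 at 10.7 and 21.7 CPM (0.490 [0.240 to 0.959]). Insig1 was the only member of 14 with enough UMIs at least 2-fold lower, against 2.01% of all genes.

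Neuropeptide and receptor genes differed in a few members. Neuropeptide genes summed to 1.19-fold [1.06 to 1.34] after LPS, with Cck at 27.4 and 12.0 CPM (2.29 [1.24 to 4.41]) and Tac3, which encodes neurokinin B, at 19.0 and 7.50 CPM (2.54 [1.18 to 5.93]), the only members of 12 at least 2-fold apart, against 1.73% of all genes higher and 2.01% lower. After poly(I:C), Cck was at 25.8 and 12.0 CPM (2.15 [1.03 to 4.51]) and Tac3 at 15.8 and 7.50 CPM (2.10 [0.810 to 5.52]). Vip, a gene of the rule, was at 61.7 CPM after LPS, 64.5 CPM after poly(I:C) and 37.5 CPM after saline, and these 3 peptides share the saline library. Grik2, a kainate receptor subunit, was at 3158 CPM after LPS and 2360 CPM after saline (1.34 [1.28 to 1.40]), and Erbb4 at 6787 and 5014 CPM (1.35 [1.31 to 1.40]). Abat, which degrades GABA, was at 120 and 157 CPM (0.763 [0.617 to 0.943]). Kcnma1 was at 916 and 1191 CPM (0.769 [0.713 to 0.830]). GABA synthesis and release genes (0.982-fold [0.952 to 1.01]), GABA-A receptors (1.08-fold [1.05 to 1.12]), neuromodulator receptors (1.01-fold [0.954 to 1.06]), clock genes (1.01-fold [0.965 to 1.06]) and heat shock genes (1.02-fold [0.905 to 1.14]) differed by little, with 0 members at least 2-fold apart in each of these lists.

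The 10 genes with the highest ratios after LPS included chemokine and immune cell genes and others spread over more nuclei. Cdk5rap3 had 27 UMIs in 27 nuclei after LPS and 7 in 7 after saline (3.92 [1.66 to 10.7]), and Rpe65 had 25 UMIs in 21 nuclei and 6 in 6 (4.23 [1.70 to 12.6]). Cxcl11 had 37 and 0 UMIs and Cxcl9, a ligand of the same receptor, 21 and 0 UMIs, but 23 of the Cxcl11 and 15 of the Cxcl9 UMIs lay in 1 nucleus. In Slc17a7, Rarb and Lhx6 or Sst nuclei, Cxcl11 had 55, 17 and 1 UMIs after LPS and 0 in each after saline. The chemokine and endothelial response list was 14.6-fold higher [5.99 to 46.4], or 4.57-fold [1.52 to 18.5] without called doublets. Fyb1, an adaptor of immune cells, had 28 and 1 UMIs (28.4 [4.70 to 1163]) in 14 and 1 nuclei, and Lyn, a kinase of myeloid cells, 58 and 9 UMIs (6.55 [3.22 to 15.0]) in 20 and 6 nuclei. Without nuclei that held 3 or more glial or vascular UMIs or were called doublets, Lyn was 4.78-fold higher [1.58 to 19.4], while Fyb1 fell below 20 UMIs over both libraries and gave no value. The 11 microglial markers found summed to 61.7 CPM after LPS and 62.2 CPM after saline (0.992 [0.721 to 1.36]), and among them Csf1r had 6 and 0 UMIs and Itgam 11 and 1. Oligodendrocyte markers were at 503 and 357 CPM (1.41 [1.25 to 1.59]), led by Mbp at 219 and 142 CPM, and 21.4% of LPS nuclei held 3 or more glial or vascular UMIs, against 13.8% of saline nuclei. The part of this RNA in the levels of Fyb1, Lyn, Cp, Cebpb and Mertk was not tested.

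At the low end after LPS, genes of vessel cells were among the 10 lowest. Cxcl12, a chemokine of vessels and some interneurons, had 1 and 35 UMIs (0.0290 [0.000715 to 0.173]), and Rgs5, a pericyte gene, 5 and 30 UMIs (0.169 [0.0513 to 0.441]). Cxcl12 was also lower in Slc17a7 (33 and 160 UMIs), Rarb (7 and 29) and Lhx6 or Sst nuclei (4 and 6). Rgs5 had 32 and 103 UMIs in Slc17a7, 20 and 21 in Rarb, and 0 and 3 in Lhx6 or Sst nuclei. In Vip and Adarb2 nuclei, mural markers summed to 14.5 CPM after LPS and 51 CPM after saline (0.284 [0.161 to 0.478]), and endothelial markers to 16 and 48.7 CPM (0.328 [0.191 to 0.544]). Ttr, the choroid plexus transthyretin, had 5 and 25 UMIs, 17 of the 25 in 1 saline nucleus. Rgs5 is itself the leading mural marker, and without it the mural sum was 0.374-fold [0.187 to 0.707]. The part of vascular RNA in the ratios of Cxcl12 and Rgs5 was not tested. Excitatory markers were also lower, at 602 and 750 CPM (0.804 [0.731 to 0.883]). Against the same saline library they were at 0.829-fold [0.739 to 0.929] after poly(I:C). For LPS over poly(I:C) their ratio was 0.969 [0.861 to 1.09], an interval that includes 1.

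LPS and poly(I:C) were then set against each other without the saline library. Interferon-stimulated genes were at 380 CPM after LPS and 1119 CPM after poly(I:C), a ratio of 0.340 [0.303 to 0.381]. Of 18 members with at least 20 UMIs, 13 were at least 2-fold lower after LPS and 0 higher, against 1.74% lower and 2.95% higher of all 8774 genes. Their median log2 ratio was -2.25, beside 0.02 over all genes. Members near 0 after LPS reach 20 UMIs only through poly(I:C), so the count and median cover these members and not the list. Mx1 had 1 UMI after LPS and 38 after poly(I:C) (0.0140 [0.000345 to 0.0828]), and Ifi44 had 9 and 38 (0.126 [0.0535 to 0.265]). Mx2 had 0 and 28 UMIs, Rsad2 2 and 18, Ddx58 4 and 32, and Usp18 6 and 36. Class I presentation genes were at 129 and 195 CPM (0.661 [0.524 to 0.834]), acute phase genes at 104 and 68.8 CPM (1.52 [1.08 to 2.15]) and immediate early genes at 281 and 362 CPM (0.775 [0.659 to 0.914]). After LPS the antiviral genes were thus far below their level after poly(I:C) at the same hour, and the acute phase list was above it. Afap1l2, an actin-associated adaptor, had 24 and 1 UMIs and was the highest gene by ratio (12.8 [2.08 to 525]), Hepacam, a glial adhesion protein, had 23 and 2 UMIs, and Tpi1, a glycolytic enzyme, 31 and 3.

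The interferon ratio was compared with that of other neurons gated from the same libraries. These were Lhx6 or Sst nuclei (150 after LPS, 108 after poly(I:C) and 136 after saline), Rarb nuclei of striatal type (419, 447 and 487) and Slc17a7 nuclei (1526, 1266 and 2096). After poly(I:C), the interferon list was at 3.69-fold of saline in Vip and Adarb2 nuclei, 2.23-fold [1.65 to 3.02] in Lhx6 or Sst nuclei, 3.52-fold [3.01 to 4.13] in Rarb nuclei and 4.02-fold [3.74 to 4.32] in Slc17a7 nuclei. The ratio in Vip and Adarb2 nuclei was 1.66 times [1.21 to 2.27] that in Lhx6 or Sst nuclei, 1.05 times [0.862 to 1.28] that in Rarb nuclei and 0.920 times [0.80 to 1.06] that in Slc17a7 nuclei. It was thus apart by counting error from Lhx6 or Sst nuclei only, the smallest of these groups, with 114 UMIs after poly(I:C) and 75 after saline. Stat4 was 13.8-fold higher in Vip and Adarb2 nuclei, 0.628 times [0.0738 to 5.34] the ratio in Lhx6 or Sst nuclei, 3.58 times [1.38 to 9.29] that in Rarb nuclei and 2.69 times [1.27 to 5.69] that in Slc17a7 nuclei. In Vip and Adarb2, Lhx6 or Sst, Rarb and Slc17a7 nuclei its level was 93.1, 90.2, 55.9 and 86.2 CPM after poly(I:C) and 6.75, 4.10, 14.5 and 16.8 CPM after saline.

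After LPS, the interferon list was at 1.25-fold in Vip and Adarb2 nuclei, 1.01-fold in Lhx6 or Sst nuclei, 1.44-fold in Rarb nuclei and 1.25-fold in Slc17a7 nuclei, with each ratio of ratios within counting error of 1. The acute phase list was at 2.32-fold, 1.45-fold, 2.44-fold and 1.47-fold in the same order, and the first was 1.58 times [1.11 to 2.24] the value in Slc17a7 nuclei. Glucocorticoid-induced genes were at 1.22-fold in Vip and Adarb2 nuclei and 1.05-fold in Slc17a7 nuclei, a ratio of 1.17 [1.05 to 1.29]. Immediate early genes were at 0.724-fold in Vip and Adarb2 nuclei and 0.998-fold in Rarb nuclei, a ratio of 0.725 [0.605 to 0.869]. Cholesterol genes were at 0.770-fold, 0.566-fold, 0.733-fold and 0.746-fold in Vip and Adarb2, Lhx6 or Sst, Rarb and Slc17a7 nuclei, below 1 in each of these groups. Vip and Adarb2 nuclei shared their saline library with the other neurons, and no more than counting error stands behind these intervals.

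**Figure D5:**
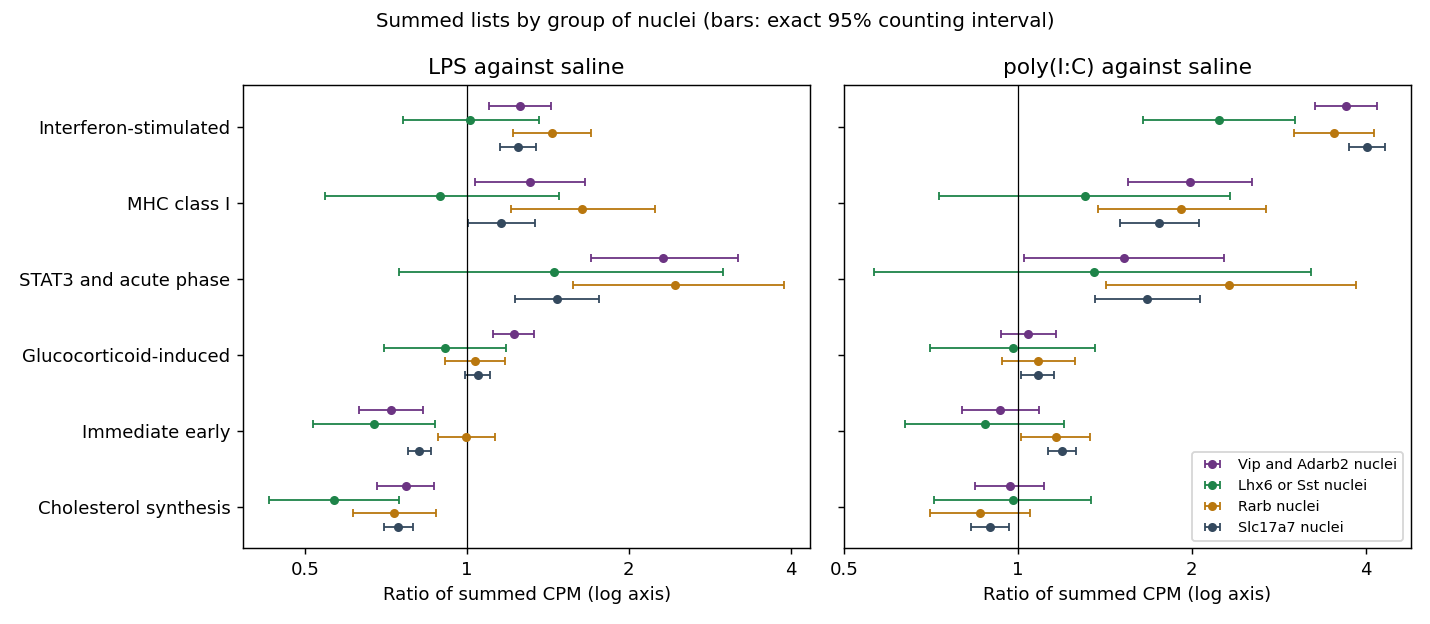
Ratio of the summed CPM of 6 gene lists, LPS against saline on the left and poly(I:C) against saline on the right, in 4 groups of nuclei, on a log axis with exact 95% counting intervals as bars. In Vip and Adarb2 nuclei the interferon list lies at 1.25 after LPS and 3.69 after poly(I:C), and the cholesterol list lies below 1 in each group after LPS.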

How the data were processed

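Nuclei were isolated in extraction buffer with an iodixanol gradient, and 5′ droplet libraries were made, per the labels' protocols. The deposited matrices hold raw UMI counts made with Cell Ranger 7.0.0 on build mRatBN7.2, per the submitters' processing notes, with no normalization by the authors. Of 30560 features, 7162 have an identifier only, and 30 of 531 listed symbols were not found. The sources used here do not give the annotation release.

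UMIs were summed over the chosen nuclei of each library and divided by their total, with Python 3.11.15 (scipy 1.17.1, numpy 2.4.6, pandas 2.3.3, matplotlib 3.10.9, scanpy 1.11.5). Ratios carry exact conditional Clopper-Pearson intervals at 95%, levels Poisson and shares Clopper-Pearson intervals, and ratios of ratios intervals of counting error. A ratio against 0 counts, written as at least, takes 3 counts in that library, and its exact lower 95% limit is smaller. Counts of genes at least 2-fold apart use genes with at least 20 UMIs in both libraries together. Doublets were kept, and leaving out those called by Scrublet (0.8% expected per 1000 nuclei) was an alternative. Scrublet called 4.23% of LPS, 5.36% of poly(I:C) and 4.29% of saline nuclei, against 8.39%, 10.5% and 17.1% expected. That alternative may therefore still hold doublets, most of all in the saline library. The members and the gene lists were chosen with earlier results of these data known. Genes named were those of the rule, the 10 highest and 10 lowest ratios of each comparison, and up to 6 members of each list with the largest ratios. Other genes (list members with fewer UMIs, such as Rsad2, Cebpb and Csf1r, and genes that set apart subgroups of the nuclei) were named after their values were seen. The code was tested on simulated data.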

Additional observations from a re-analysis of the deposited data

How the results depend on the processing

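No paired analysis was possible because each group is 1 library of 4 pooled animals. With 1 library per group, nothing here measures the spread between animals, depth differed between libraries, and the rule asks for both the presence and the absence of UMIs. The share of Vip and Adarb2 nuclei after LPS over saline was 1.11 at 1000 genes or more, 2.37 for nuclei with Vip only and 1.56 without nuclei of mixed RNA. That after poly(I:C) over saline was 0.738 at 1000 genes or more and 1.12 for nuclei with Vip, and that of LPS over poly(I:C) was 2.11 for nuclei with Vip. The interferon ratio in nuclei with Vip only was 0.678 [0.391 to 1.17] after LPS, an interval that includes 1. In the same nuclei it was 4.49 [2.90 to 7.14] after poly(I:C) and 0.151 [0.0949 to 0.234] for LPS over poly(I:C). It was 4.35 after poly(I:C) and 0.271 for LPS over poly(I:C) when nuclei were thinned before the rule, and 3.17 after poly(I:C) without nuclei of mixed RNA, a setting added after seeing the data.

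Counts of genes at least 2-fold apart depended on the minimum of UMIs and on how many genes it left. In LPS over saline 9659 genes were counted, but 1683 in nuclei with Vip, 5133 thinned and 14176 with no minimum, so a smaller count need not be a smaller share. In poly(I:C) over saline and LPS over poly(I:C), 8875 and 8774 genes were counted, but 1053 and 1369 in nuclei with Vip. For LPS over saline, 167 genes were higher, but 101 in nuclei with Vip, 109 thinned, 23 at 50 UMIs and 1052 with no minimum, and 194 were lower, but 88 in nuclei with Vip, 38 at 50 UMIs and 760 with no minimum. For poly(I:C) over saline, 142 were higher, but 37 in nuclei with Vip, 18 at 50 UMIs and 770 with no minimum, and 303 were lower, but 69 in nuclei with Vip, 173 thinned, 36 at 50 UMIs, 1013 with no minimum and 134 with 2 counts added. For LPS over poly(I:C), 259 were higher, but 416 at 1000 genes or more, 97 in nuclei with Vip, 143 thinned, 37 at 50 UMIs, 993 with no minimum and 114 with 2 counts added, and 153 were lower, but 64 in nuclei with Vip, 28 at 50 UMIs and 812 with no minimum.

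At 1000 genes or more the direction turned for the ErbB and reelin list (0.995), Gad2 (0.972) and Egfr (0.768) after poly(I:C), and for clock genes (1.02), GABA machinery (1.01), Gad1 (1.17) and Gad2 (1.02) of LPS over poly(I:C). In nuclei with Vip it turned after LPS for class I genes (0.484), sensors (0.898), Meis2 and olfactory markers (0.518) and oligodendrocyte markers (0.739). There it turned after poly(I:C) for GABA-A receptors (0.939), neuromodulator receptors (1.09), astrocyte markers (1.04) and Gabrb1 (0.811), and for LPS over poly(I:C) for astrocyte (0.901) and oligodendrocyte markers (0.566). Thinned, it turned for class I genes (0.938) and neurogliaform markers (1.12) after LPS, for neurogliaform markers (1.05) and Nrg1 (0.941) after poly(I:C), and for Gad1 (1.06) of LPS over poly(I:C). Without nuclei of mixed RNA, oligodendrocyte markers were 0.685 for LPS over saline and 0.966 for LPS over poly(I:C). That setting leaves out nuclei by these same markers among others, so it cannot show how oligodendrocyte RNA differed. The cause of the other changes was not tested. These turned values are given without intervals, and several, such as 0.995 and 1.01, lie close to 1. A turn in direction may therefore lie within counting error.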
